A study of Mus musculus with 6 samples.

Results

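EGF family ligands and receptors were followed in the livers of LiKM and LiK mice as 10 genes taken by symbol from a table of 26608 gene symbols: the ligand genes Areg, Ereg, Hbegf, Tgfa, Egf and Btc, the receptor genes Egfr, Erbb2 and Erbb3, and Errfi1, which encodes an inhibitor of the receptors. All 10 had a row in the table. Messenger RNA was sequenced from whole liver of 6 mice aged 6 weeks, 3 LiKM and 3 LiK, and the deposited totals lay between 19909993 and 24874343 counts per library. The labels give only the short names, and the alleles are stated here from knowledge of the publication: both genotypes carry Cre under the albumin promoter, and LiKM mice lack Mdm2, the ubiquitin ligase that restrains p53, in the cells where Cre was active. The albumin promoter is active in hepatocytes and in their fetal precursors, so the genotypes differ in the alleles of those lineages and not of immune, stellate or endothelial cells. LiK mice are not wild type, since what LiKM mice carry besides the loss of Mdm2 they carry too, and no wild-type liver was analysed here. The comparison asks how this receptor family stood in LiKM livers beside LiK livers.

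EGF family ligands are made as membrane proteins, and proteases of the ADAM family cut them free. The ligands bind receptor tyrosine kinases of the ERBB family, which pair up and signal through RAS to the kinase ERK. In liver, EGFR and ERBB3 are the main receptors of adult hepatocytes, and signalling through EGFR is known to drive hepatocyte division after tissue loss. Errfi1, also called MIG6, is switched on by the receptors it blocks. Areg, Ereg, Epgn and Btc lie next to each other on mouse chromosome 5.

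Levels are given as counts-per-million values (CPM) scaled for library size and composition, and differences as log2 fold changes of LiKM over LiK. The 10 hepatocyte markers, among them Alb, Apoa1 and Ttr, were present in every library and summed to 115935 to 132547 CPM in LiKM and to 110163 to 134377 CPM in LiK. Mdm2, the gene deleted in LiKM, had 122, 125 and 60.5 CPM in LiKM and 28.7, 29.0 and 28.6 CPM in LiK, and it rose by 1.83 (SE 0.27) on the log2 scale (edgeR adjusted p = 0.0196). It was called when LiKM 1 or LiKM 3 was left out and not when any of the other 4 libraries was. Its gene-level count sums all exons and p53 is known to switch the gene on, so the count does not test the deletion. Trp53, which encodes p53, averaged 25.5 ± 6.79 CPM in LiKM and 21.9 ± 2.92 CPM in LiK (SD, n = 3 each). The labels name no batch. Along the second principal component of log2 CPM, which held 18.2% of the variance, LiKM 3 lay at −37.8 and LiKM 1 and LiKM 2 at 28.4 and 20.2.

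The upstream sequences of 3 members are shown: those of Errfi1 and Egfr because these genes had the highest levels per exon length and were lower in all LiKM livers, and that of Areg because its counts were at 0 in 4 of the 6 libraries. Each window is read 5′ to 3′ on the plus strand from RefSeq on GRCm38.p6 and holds 250 bases before the transcription start and 50 after it. Capitals mark the letters TGACGTCA, the cyclic AMP response element (CRE), and GGGCGG, the GC box, on either strand.

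Errfi1, chr4:150854820-150855119: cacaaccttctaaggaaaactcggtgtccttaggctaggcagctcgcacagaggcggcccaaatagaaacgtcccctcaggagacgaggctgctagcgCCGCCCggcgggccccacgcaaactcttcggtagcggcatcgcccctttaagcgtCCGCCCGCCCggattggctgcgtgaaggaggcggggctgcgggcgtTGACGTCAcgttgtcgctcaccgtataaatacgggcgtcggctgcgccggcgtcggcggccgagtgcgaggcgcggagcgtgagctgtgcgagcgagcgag
Egfr, chr11:16751953-16752252: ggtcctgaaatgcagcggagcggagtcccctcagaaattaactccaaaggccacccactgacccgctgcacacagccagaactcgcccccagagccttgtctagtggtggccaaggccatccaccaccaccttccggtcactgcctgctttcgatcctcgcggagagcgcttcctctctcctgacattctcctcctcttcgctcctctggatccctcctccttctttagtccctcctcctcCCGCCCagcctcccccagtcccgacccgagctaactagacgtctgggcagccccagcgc
Areg, chr5:91139349-91139648: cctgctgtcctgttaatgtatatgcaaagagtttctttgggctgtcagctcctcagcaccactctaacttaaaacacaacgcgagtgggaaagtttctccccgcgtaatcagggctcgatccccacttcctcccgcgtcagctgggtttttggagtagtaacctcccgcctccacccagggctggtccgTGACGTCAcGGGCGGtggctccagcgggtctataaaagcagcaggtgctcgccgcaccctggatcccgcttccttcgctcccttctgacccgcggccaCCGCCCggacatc

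The table of upstream windows held 7 of the 10 members with 9 windows, 2 each for Errfi1 and Egf, and no entry for Ereg, Hbegf and Erbb3. Searched on both strands, the CRE letters lay in the Errfi1 window 51 bases before the start and in the Areg window 61 bases before it, and in no other window of a member. The same letters lay in 1.79% of all 32851 windows of 300 bases. GC boxes lay in the Errfi1, Egfr, Areg and Tgfa windows, and in 35.7% of all windows. In Errfi1 a pair of GC boxes overlapped, 97 and 93 bases before the start. TGANTCA, the AP-1 element, lay in none of the 9 windows, against 7.81% of all windows. GGAATG, the TEAD element, lay in the Erbb2 window and in the other Errfi1 window (14.7% of all windows), and the p53 half-site lay in 1 Egf window (8.36% of all windows). The windows shown had a GC content of 66.7% for Errfi1, 62.3% for Egfr and 59.3% for Areg, against a median of 52.7% over all windows. These matches describe letters and not bound sites.

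No member was called different between the genotypes. Of the 10 members, 9 passed the filter on low counts and were tested, and edgeR called 0 of these 9 at a threshold of 0.05 on p-values adjusted over all 13537 genes tested, of which 5.92% were called. At an unadjusted p under 0.05 the count was 4 of 9, with Btc and Tgfa higher and Egfr and Errfi1 lower in LiKM, against 22.4% of all genes tested. DESeq2's Wald test called 1 member, Egfr, lower in LiKM. Over all genes it called 11.8% in either direction and 377 of 13523 lower. In 5 of the 9 tested members the values of the genotypes did not overlap, which was so for 29.6% of all genes tested. With 3 mice against 3, an exact permutation test of a single gene cannot give a two-sided p below 0.1. Nothing in the labels says whether the mice shared a litter or a processing day.

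**Figure D1:**
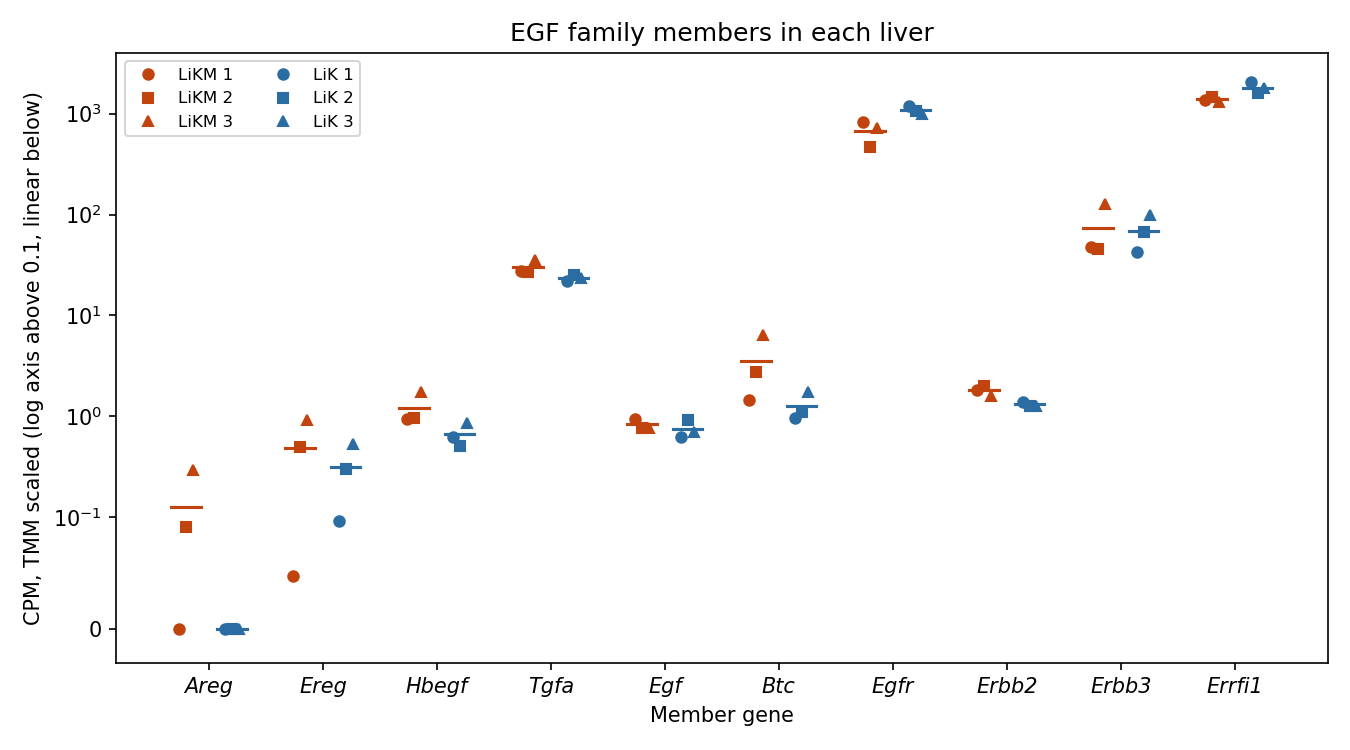
CPM of the 10 members in each library, on an axis that is logarithmic above 0.1 CPM and linear below it. LiKM libraries are red on the left and LiK libraries blue on the right of each gene, marker shapes stand for the replicate number, and bars are means of 3 libraries. Egfr and Errfi1 sit at 469 to 2048 CPM with every LiKM point below every LiK point, while Areg, Ereg, Hbegf and Egf sit below 2 CPM.

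Egfr, the receptor of Areg, Tgfa, Egf, Btc, Hbegf and Ereg, was lower in every LiKM liver. It had 819.6, 469 and 728 CPM in LiKM 1, 2 and 3, against 1196, 1072 and 994 CPM in LiK 1, 2 and 3. The groups did not overlap, and LiKM 2 was the lowest of all. The means were 672 ± 182 CPM in LiKM and 1088 ± 102 CPM in LiK (SD, n = 3 each), and the log2 fold change was −0.69 (SE 0.22, 95% interval −1.20 to −0.18), about 0.618 of the LiK level. It was not called by edgeR (adjusted p = 0.115) and was called by DESeq2 (adjusted p = 0.0225). Over the 6 edgeR fits that each leave out a library, the log2 fold change lay between −0.89 and −0.51 and the adjusted p between 0.0942 and 0.284.

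In bulk liver, fewer cells of a type and less RNA per cell cannot be told apart. Set against hepatocyte markers of the same library, the comparison of Egfr depended on the marker. Against their sum, of which Alb made up 71.8% to 79.6%, Egfr stood at 6.18, 4.04 and 5.98 CPM per 1000 CPM in LiKM and at 9.52, 9.73 and 7.40 in LiK, with no overlap. Without Alb in the sum Egfr stood at 0.0279, 0.0191 and 0.0293 in LiKM and at 0.0337, 0.0363 and 0.0305 in LiK, also without overlap. Against each of the 10 markers in turn, the genotypes did not overlap for 3 (Alb, Ttr and Fah) and overlapped for 7. Against Hnf4a, which encodes a hepatocyte transcription factor, Egfr stood at 1.16, 0.763 and 1.15 in LiKM and at 1.09, 1.12 and 1.51 in LiK. The markers were themselves mostly lower in LiKM, with 8 of 10 log2 fold changes below 0 and a median of −0.31, against 0.00 over all genes tested. Of the 10 markers, edgeR called 0 (5.92% of all genes tested) and 4 had an unadjusted p under 0.05 (22.4% of all genes tested). DESeq2 called 2 of the 10 lower, and over all genes it called 377 of 13523 lower and 11.8% in either direction. The part of hepatocyte content in the level of Egfr was not tested.

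Errfi1, the feedback inhibitor, was the most abundant member and was also lower in every LiKM liver. It had 1369, 1474 and 1315 CPM in LiKM, against 2048, 1603 and 1782 CPM in LiK. The LiKM libraries lay close together, and the gap to the nearest LiK library was small. The log2 fold change was −0.39 (SE 0.14, 95% interval −0.72 to −0.05), which edgeR did not call (adjusted p = 0.175) and DESeq2 did not call (adjusted p = 0.0534). The 10 hepatocyte markers had log2 fold changes from −0.75 to 0.10, with a median of −0.31. Errfi1 did not overlap between the genotypes against 1 of the 10 hepatocyte markers, Alb, and overlapped against the other 9. Against Fah, a tyrosine-breakdown enzyme gene, it stood at 2.38, 2.75 and 2.51 in LiKM and at 2.86, 2.39 and 2.77 in LiK. The part of hepatocyte content in the level of Errfi1 was not tested. The ratio of Errfi1 to Egfr per exon length overlapped between the genotypes, at 5.28, 9.95 and 5.71 in LiKM and 5.41, 4.73 and 5.67 in LiK.

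Erbb2, the receptor that binds no ligand of its own and pairs with the other receptors, was scarce. It had 39, 44 and 33 counts in LiKM (1.83, 2.00 and 1.59 CPM) and 29, 25 and 31 counts in LiK (1.40, 1.26 and 1.27 CPM). All LiKM values lay above all LiK values, with a log2 fold change of 0.46 (SE 0.24, 95% interval −0.09 to 1.02) that was not called by edgeR (adjusted p = 0.302).

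Erbb3, the neuregulin receptor whose own kinase is nearly inactive, differed more between mice of a genotype than between the genotypes. It had 48.0, 45.6 and 128 CPM in LiKM and 42.3, 67.3 and 98.2 CPM in LiK. LiKM 3 and LiK 3 were the highest of their genotypes, the highest library exceeded the lowest 2.82-fold in LiKM and 2.32-fold in LiK, and the groups overlapped widely. The log2 fold change of 0.09 (SE 0.46, 95% interval −0.99 to 1.18) was not called by edgeR (adjusted p = 0.924), and the interval spans changes of about 2-fold in either direction. Without LiKM 3 the value was −0.58, and without LiK 1 it was −0.17.

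**Figure D2:**
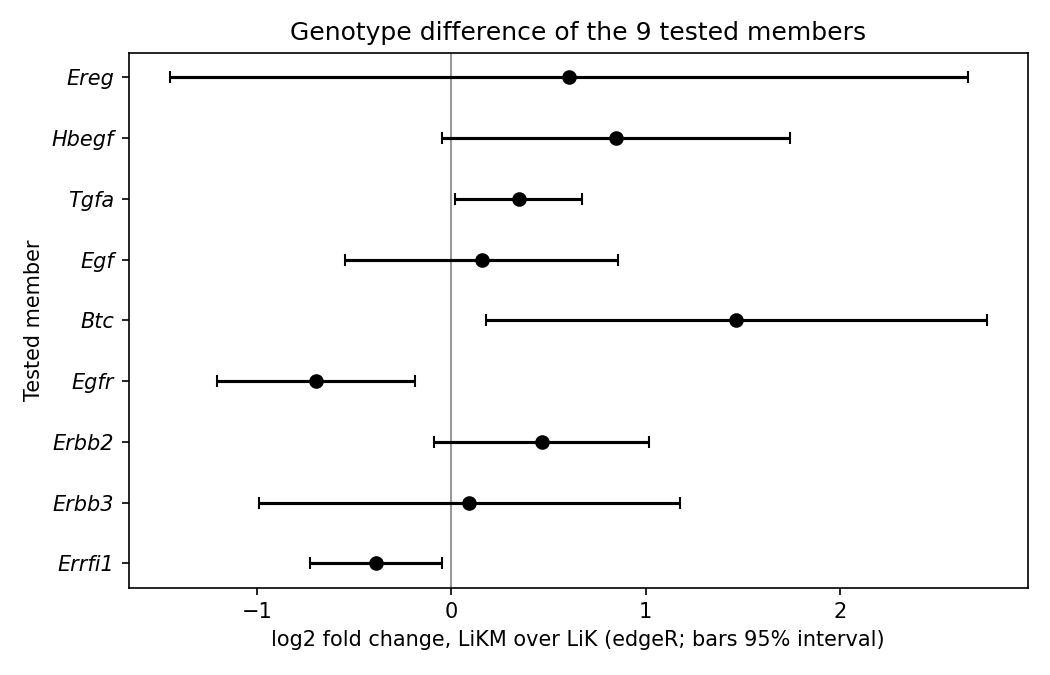
Log2 fold change of the 9 tested members, LiKM over LiK, from edgeR, with bars for the 95% interval of each gene alone, not adjusted for the number of genes. Egfr and Errfi1 lie left of 0, the other 7 lie right of it, and the interval of Ereg is the widest, from −1.45 to 2.66.

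Among the ligands, Tgfa had the highest level per exon length. Tgfa, which encodes TGF alpha, had 27.3, 27.1 and 35.6 CPM in LiKM, against 22.0, 25.1 and 23.7 CPM in LiK. All LiKM libraries lay above all LiK libraries, by a small margin for LiKM 1 and LiKM 2. The log2 fold change was 0.35 (SE 0.14, 95% interval 0.02 to 0.67) and was not called by edgeR (adjusted p = 0.198). Without LiKM 3 it was 0.19. Divided by exon length, Tgfa made up 87.3%, 79.6% and 70.5% of the summed level of the 6 ligands in LiKM 1, 2 and 3, and 88.9%, 88.5% and 83.0% in LiK 1, 2 and 3.

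Btc, which encodes betacellulin, a ligand of EGFR and ERBB4, had the largest log2 fold change of the tested members and an uneven one. It had 31, 61 and 132 counts in LiKM (1.46, 2.77 and 6.36 CPM) and 20, 22 and 42 counts in LiK (0.963, 1.11 and 1.72 CPM). LiKM 1 lay below LiK 3, so the groups overlapped. The log2 fold change was 1.47 (SE 0.55, 95% interval 0.18 to 2.75) and was not called by edgeR (adjusted p = 0.175). LiKM 3 carried much of it, and without that library the log2 fold change was 0.71. By the root mean square difference between mean-centred log2 CPM profiles over the 6 libraries, the genes most like Btc were Mlph (0.084), Zc3h12d (0.106) and Ralgds (0.147). All 3 also had their highest LiKM value in LiKM 3, and Mlph had 21, 36 and 91 counts in LiKM and 14, 14 and 27 in LiK.

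Hbegf, which encodes heparin-binding EGF-like growth factor, was scarce, with 20, 21 and 36 counts in LiKM (0.940, 0.953 and 1.74 CPM) and 13, 10 and 21 in LiK (0.626, 0.503 and 0.862 CPM). The LiKM libraries lay above the LiK libraries, LiKM 1 only just above LiK 3. The log2 fold change of 0.85 (SE 0.38, 95% interval −0.05 to 1.74) was not called by edgeR (adjusted p = 0.247). Without LiKM 3 it was 0.48. The genes most like it by the same measure were Oasl2, Ifngr2 and Adprh, at differences of 0.107 to 0.127.

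Ereg, which encodes epiregulin, had 1, 11 and 19 counts in LiKM and 2, 6 and 13 counts in LiK. Its libraries overlapped across nearly the whole range, and at this depth the log2 fold change of 0.60 (SE 0.87, 95% interval −1.45 to 2.66, edgeR adjusted p = 0.723) could not be told from 0. Without LiKM 3 it was −0.22.

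Egf itself, the founding ligand, which is made mainly in the kidney and salivary gland, had 20, 17 and 16 counts in LiKM and 13, 18 and 17 in LiK. The groups overlapped, with a log2 fold change of 0.16 (SE 0.30, 95% interval −0.54 to 0.86) and an edgeR adjusted p of 0.791.

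Areg, which encodes amphiregulin, did not pass the filter on low counts and was not tested in the comparison. It had 0, 2 and 6 counts in LiKM and 0, 0 and 0 counts in LiK. LiKM 1 was thus at 0 like the LiK libraries. A count of 0 allows up to 3 counts, which is 0.141 CPM in LiKM 1 and 0.144, 0.151 and 0.123 CPM in LiK 1, 2 and 3, and this covers counting error only. LiKM 2 lay below these limits at 0.0907 CPM and LiKM 3 above them at 0.289 CPM. With no filter, Areg had an edgeR adjusted p of 0.292.

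In the gene cluster on chromosome 5, the protein-coding neighbours run in the order Mthfd2l, Epgn, Ereg, Areg, Btc and Parm1. Epgn, which encodes the ligand epigen, had 0, 0 and 1 counts in LiKM and 0, 0 and 1 in LiK. Mthfd2l, a folate enzyme gene on one flank, had 23, 28 and 24 counts in LiKM and 19, 27 and 29 in LiK, with a log2 fold change of 0.02. Parm1, on the other flank, had 7, 3 and 8 counts in LiKM and 0, 2 and 1 in LiK, too few to pass the filter.

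LiKM 3 had the highest LiKM value in 6 of the 10 members, namely Areg, Ereg, Hbegf, Tgfa, Btc and Erbb3, and in 38.2% of all genes tested. LiK 3 had the highest LiK value in Ereg, Hbegf, Btc and Erbb3, 4 of the 9 members with a count in LiK, and in 38.8% of all genes tested. These 4 members were highest in both libraries. The replicate numbers are not known to link mice across genotypes. LiKM 3 also had the highest neutrophil marker sum, 19.5 CPM, against 6.58 and 9.21 CPM in LiKM 1 and LiKM 2. In LiK 1, 2 and 3 the sums were 14.2, 7.65 and 5.75 CPM, so LiK 3 had the lowest sum of all libraries. Of the 4 tested neutrophil markers 0 were called by edgeR or DESeq2, 0 had an unadjusted p under 0.05, and Ly6g and Camp were at 0 in at least 1 library. Among the LiKM libraries, LiKM 3 also had the highest sums of bile duct markers (233 CPM) and of innate lymphoid and mast cell markers (23.6 CPM). Its sums of macrophage, stellate and endothelial markers were the lowest, at 387, 601 and 241 CPM. The part of any of these cells in the members' values was not tested.

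**Figure D3:**
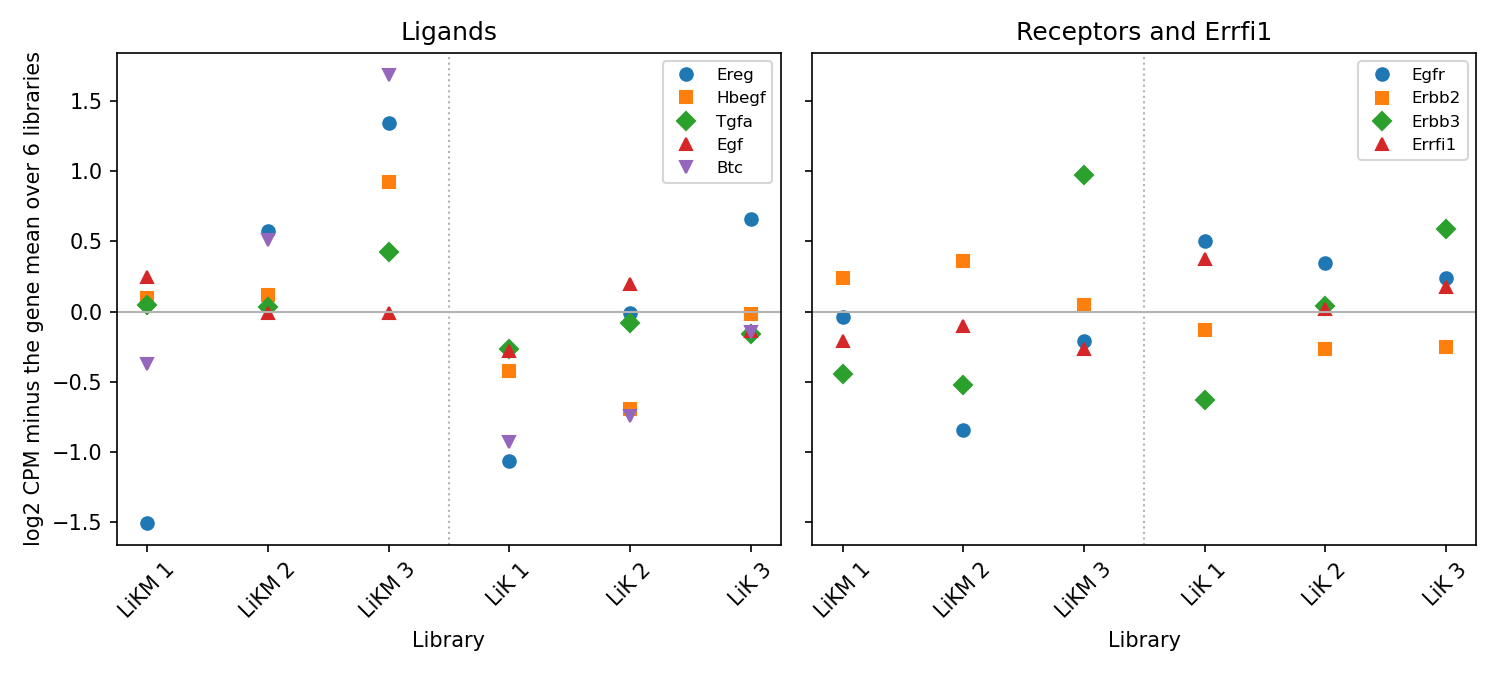
Log2 CPM of each tested member minus its mean over the 6 libraries, with ligands on the left, receptors and Errfi1 on the right, and LiKM libraries left of the dotted line in each panel. Btc, Ereg, Hbegf and Erbb3 are highest in LiKM 3, and Ereg and Erbb3 are also raised in LiK 3, while Egfr and Errfi1 lie below 0 in every LiKM library.

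Levels of different genes can be compared only per length. Divided by the exon length of each gene in GENCODE M21, the order in LiKM was Errfi1 (387 ± 22.6 CPM per kilobase), Egfr (59.4 ± 16.1), Erbb3 (12.3 ± 7.84), Tgfa (4.62 ± 0.744), Btc (0.781 ± 0.562), Erbb2 (0.347 ± 0.0392), Hbegf (0.250 ± 0.0943), Ereg (0.118 ± 0.105), Areg (0.104 ± 0.122) and Egf (0.0734 ± 0.00862; SD, n = 3). In LiK the order was Errfi1 (506 ± 62.5 CPM per kilobase), Egfr (96.0, with libraries from 87.8 to 106), Erbb3 (11.5 ± 4.66), Tgfa (3.63 ± 0.240), Btc (0.280 ± 0.0894), Erbb2 (0.251 ± 0.0146), Hbegf (0.137 ± 0.0377), Ereg (0.0752 ± 0.0530), Egf (0.0659 ± 0.0129) and Areg at 0. In both genotypes the ranges of Btc and Erbb2 overlapped, as did those of Hbegf and Ereg and those of Ereg and Egf, and in LiKM also those of Erbb2 and Hbegf and those of Areg with Ereg and Egf, so these neighbours in the order are not told apart. The ranges of Errfi1, Egfr, Erbb3, Tgfa and Btc did not overlap between neighbours in either genotype. Egfr made up 89.7%, 83.9% and 74.8% of the summed level per length of Egfr, Erbb2 and Erbb3 in LiKM 1, 2 and 3, against 93.5%, 89.2% and 84.1% in LiK 1, 2 and 3. These shares overlapped. The summed level of the 6 ligands was 4.82, 5.25 and 7.78 CPM per kilobase in LiKM and 3.80, 4.36 and 4.41 in LiK, and that of the 3 receptors was 80.7, 49.3 and 86.0 in LiKM and 113, 106 and 104 in LiK. Neither sum overlapped between the genotypes: ligand sums, mostly Tgfa, lay higher and receptor sums, mostly Egfr, lay lower in LiKM.

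Outside the 10 members, 2 further genes of the family were tested and edgeR called 1 higher, against 5.11% of all genes tested. With 2 genes tested, this count says little about the family. Nrg1, which encodes neuregulin 1, a ligand of ERBB3 and ERBB4, had 13, 63 and 48 counts in LiKM (0.611, 2.86 and 2.31 CPM) and 1, 3 and 5 counts in LiK (0.0482, 0.151 and 0.205 CPM). The groups did not overlap, and the log2 fold change was 3.75 (SE 0.73) with an edgeR adjusted p of 0.0342. A gene this scarce in LiK passed the filter through its LiKM counts, it was not tested under a minimum of 1 CPM in 3 libraries, and without 1 library it was called only when LiKM 1 was left out. Nrg4, the neuregulin gene best known from brown fat, had 35.4, 17.3 and 5.74 CPM in LiKM and 26.7, 23.8 and 9.07 CPM in LiK, with a log2 fold change of −0.03 and no call. Of the 6 other family genes, only Nrg1 and Nrg4 passed the filter. Nrg2, Nrg3 and Epgn had at most 4 counts in any library, and Erbb4, the fourth receptor, had 6, 10 and 5 counts in LiKM and 8, 7 and 11 in LiK.

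Several genes of ligand shedding rose. Of 11 tested genes of 12 in the list, 4 rose and 0 fell, with a median log2 fold change of 0.53, while 5.11% of all genes tested were called higher and 0.813% lower. Adam8, a metalloprotease gene of leukocytes, had 105, 161 and 76 counts in LiKM and 14, 9 and 11 in LiK, a log2 fold change of 3.32 (SE 0.36, edgeR adjusted p = 0.0107), and at 0.674, 0.453 and 0.451 CPM in LiK it passed the filter through its LiKM counts. The metalloprotease gene Adam19 rose by 2.16 (SE 0.43), its relative Adam15 by 1.24 (SE 0.21) and Rhbdf1, which encodes an inactive rhomboid that carries ADAM17 to the cell surface, by 0.80 (SE 0.15) on the log2 scale, with edgeR adjusted p of 0.0352, 0.0248 and 0.033. Adam17 itself, the main sheddase of amphiregulin and TGF alpha, had 591, 552 and 570 counts in LiKM and 511, 480 and 525 in LiK and was not called (0.19, edgeR adjusted p = 0.346), nor was Adam10 (0.27), which sheds betacellulin and EGF. The count rested on single libraries, at 0 called without LiK 1 or LiK 2, 1 without LiKM 2, 2 without LiKM 1 or LiKM 3 and 3 without LiK 3.

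Immune and stellate markers moved alongside these genes. Of 10 macrophage markers 4 rose (5.11% of all genes tested were called higher), and the list summed to 387 to 541 CPM in LiKM and 260.1 to 334 CPM in LiK. The macrophage count was 0 without LiKM 2, LiK 1 or LiK 2, 1 without LiK 3, 2 without LiKM 1 and 4 without LiKM 3. Of 9 tested T and natural killer cell markers 7 rose, with sums of 11.8 to 16.8 CPM in LiKM and 3.04 to 6.74 CPM in LiK, and Cd3e and Nkg7 at 0 in at least 1 library. Cd4 went the other way (log2 fold change −0.94, not called by edgeR). It had 1.93, 1.95 and 1.30 CPM in LiKM and 4.96, 3.37 and 1.68 CPM in LiK, where it made up most of each sum. The 7 that rose had 0 to 8 counts in each LiK library and passed the filter through their LiKM counts, so that their number says little. It was 4 under a minimum of 1 CPM in 3 libraries, 0 without LiK 2, 1 without LiKM 2 or LiK 1 and 4 without LiKM 1 or LiK 3. Of 10 stellate cell markers 4 rose, with sums of 601 to 615 CPM in LiKM and 229 to 369 CPM in LiK, and the count was 0 without LiKM 1, LiKM 2, LiK 1 or LiK 2 and 2 without LiKM 3. Of 4 tested innate lymphoid and mast cell markers 0 were called, with sums of 21.9 to 23.6 CPM in LiKM and 12.8 to 16.7 CPM in LiK, and the mast cell genes Cpa3, Mcpt4, Tpsb2, Ms4a2 and Fcer1a were at 0 in at least 1 library. Of 7 tested bile duct markers 0 were called, but 6 had a log2 fold change above 0, with a median of 1.12, and Krt7, Krt19, Epcam and Sox9 were higher in every LiKM library than in any LiK library. The bile duct sums, 111 to 233 CPM in LiKM and 82.9 to 254 CPM in LiK, overlapped and were mostly Spp1. Of 10 endothelial markers 0 were called, with sums of 241 to 367 CPM in LiKM and 247 to 287 CPM in LiK. Of these 10, 8 had a log2 fold change above 0 and 2 below it, Lyve1 (−0.63) and Tie1 (−0.06). The genotypes did not overlap for 2 of the 10, against 29.6% of all genes tested. These were Pecam1 and Cdh5, higher in every LiKM library. At an unadjusted p under 0.05 edgeR gave 2 of the 4 innate lymphoid and mast cell markers, 4 of the 7 bile duct markers and 4 of the 10 endothelial markers, against 22.4% of all genes tested. DESeq2 called 1, 2 and 0 markers of these lists, against 11.8% of the genes it tested. Of the 4 endothelial markers under the unadjusted threshold, Lyve1 was lower in LiKM and Pecam1, Cdh5 and Tek were higher. The part of any of these cells in the levels of the ligands, of Nrg1 or of the sheddases was not tested.

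**Figure D4:**
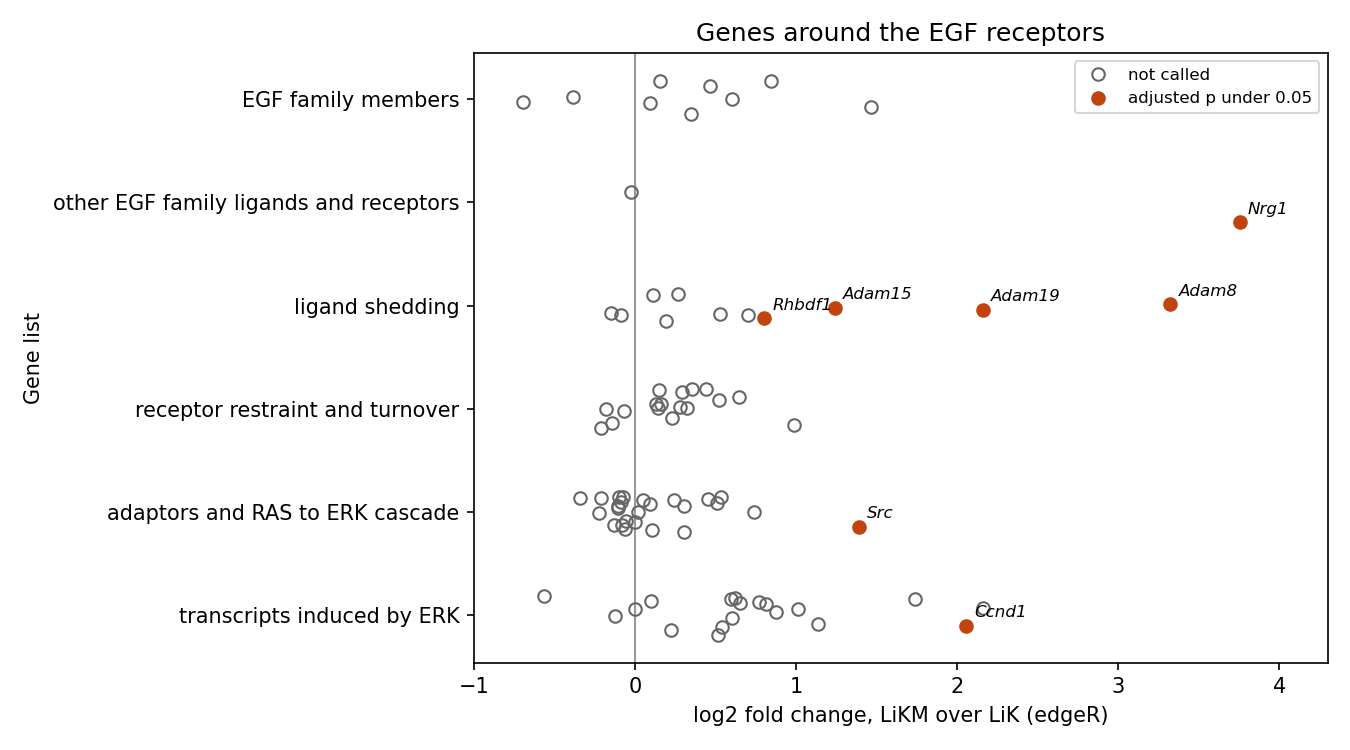
Log2 fold change, LiKM over LiK, of the tested EGF family members and of 5 lists of genes around the receptors, 1 point per gene, spread vertically within a list for legibility. Filled points are genes with an edgeR adjusted p under 0.05; they are Nrg1, Adam8, Adam19, Adam15, Rhbdf1, Src and Ccnd1, and all lie right of 0.

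Of 25 tested genes of adaptors and the RAS to ERK cascade, 1 rose and 0 fell, near the 5.11% and 0.813% of all genes tested, with a median log2 fold change of 0.00. The 1 was Src, a kinase that phosphorylates EGFR, at 6.01, 5.44 and 7.09 CPM in LiKM and 1.83, 2.82 and 2.42 CPM in LiK (log2 fold change 1.39, SE 0.23, edgeR adjusted p = 0.0231). Src was called without LiKM 3 and in no other fit that leaves out a library.

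Of 19 tested transcripts that ERK is known to induce, 1 rose, 0 fell and 17 had a log2 fold change above 0, against 5.11% called higher and 49.5% above 0 among all genes tested. At an unadjusted p under 0.05 the count was 7 of 19 (22.4% of all genes tested). DESeq2 called 3 higher, and over all genes it called 1214 of 13523 higher. Their median log2 fold change was 0.62, against 0.00 over all genes tested. The called gene was Ccnd1, the cyclin of G1 phase, at 117, 180.1 and 84.6 CPM in LiKM and 24.3, 16.9 and 50.3 CPM in LiK (2.06, SE 0.44, edgeR adjusted p = 0.0431), and it was called without LiK 3 or without LiKM 3, and not without LiKM 1, LiKM 2, LiK 1 or LiK 2. The feedback phosphatase gene Dusp6 (0.54, edgeR adjusted p = 0.0607) and the feedback inhibitor gene Spry4 (−0.56, edgeR adjusted p = 0.302) pointed in opposite directions and were not called. Spry4 was among the 2 transcripts with a log2 fold change below 0, and its groups overlapped. Dusp6 was among the 8 of 19 transcripts whose groups did not overlap, against 29.6% of all genes tested.

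Of 17 tested genes that restrain the receptors or move them to degradation, 0 were called by edgeR, 3 had an unadjusted p under 0.05 and DESeq2 called 1, against 5.92%, 22.4% and 11.8% of all genes tested. Their median log2 fold change was 0.23. The tested genes furthest from 0 were Sh3kbp1, an adaptor of receptor endocytosis, at 0.99 (SE 0.27, edgeR adjusted p = 0.083), and Grb10, an adaptor that binds receptor kinases, at 0.64 (SE 0.19, edgeR adjusted p = 0.0983). Lrig1, which marks ERBB receptors for degradation, had 825, 866 and 924 counts in LiKM and 972, 840 and 1207 in LiK and was not called (−0.18).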

How the data were processed

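Polyadenylated RNA of whole liver was made into strand-specific TruSeq libraries and sequenced, per the labels' protocols. The authors deposited raw counts per gene symbol, and the submitters' processing notes name featureCounts and FastQC 0.11.7. The aligner, genome build, annotation and strand setting were not given in the sources used here. Counts of overlapping or near-identical genes could therefore be split or shared.

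Groups came from the labels, and each mouse was taken as a separate animal. Genes were filtered with filterByExpr (minimum count 10, total 15) and scaled by the trimmed mean of M values (TMM). LiKM was tested against LiK with edgeR 4.0.16 in R 4.3.3 by the quasi-likelihood test, with Benjamini-Hochberg adjustment over 13537 genes and a threshold of 0.05. The fit was tested on simulated data. The standard error is the absolute log2 fold change divided by the square root of F. DESeq2 1.42.0, other scalings and filters, a replicate block and leaving out each library were alternatives. CPM are counts-per-million values on TMM-scaled library sizes, computed from the deposited counts, and 1 count was worth 0.0410 to 0.0503 CPM. Levels per kilobase used GENCODE M21 exon lengths, which may differ from the authors' annotation. The labels name 6 libraries and every pair within a genotype differed beyond sampling noise.

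The members and gene lists were chosen with earlier results of these data known. Named genes were the members, list genes past the threshold (in a list with none, the 2 furthest from 0), the neighbours of Areg, Ereg and Btc, and the 3 genes closest in profile to the 2 members with the largest absolute log2 fold change. Nrg2, Nrg3, Nrg4, Erbb4, Adam10, Adam17, Dusp6, Spry4, Lrig1, Fos, Egr1, Myc and Ier3 were added after their values were seen. So were the ratios to single hepatocyte markers and to their sum without Alb, and the cell type markers named one by one. An allele that both genotypes share is not reported here.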

Additional observations from a re-analysis of the deposited data

How the results depend on the processing

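Over 105 alternative values for the log2 fold changes of the 9 tested members, 101 kept direction and side of the threshold. The fits without 1 library called fewer genes than the main fit, so members that stayed uncalled in them say little. Egfr gained a call under DESeq2 (−0.72), so DESeq2 called 1 member, 1 of them lower, where every other setting called 0. Without 1 library, Ereg ranged from −0.22 (without LiKM 3) to 1.27 and Erbb3 from −0.58 (without LiKM 3), with −0.17 without LiK 1, to 0.43; the cause of these reversals was not tested. Over all genes, 802 were called by edgeR (5.92% of those tested), 1591 by DESeq2 (11.8%) and 19 to 626 without 1 library. Around the receptors, 7 of 81 list genes, some of them not tested, were called and 0 to 4 without 1 library. Cell type lists, of 10 genes each and not all tested, held 15 called genes, 26 under DESeq2 and 0 to 12 without 1 library. Library totals in place of TMM moved the median log2 fold change of all genes by 0.16 and the share of calls that were higher to 94.3%, against 86.3% under TMM and 76.3% under DESeq2. The replicate block called 835 genes and 0 members, and Ccnd1 lost its call under it (2.14). Same-numbered mice correlated at 0.267, −0.000281 and 0.127 in their deviations from the group means. LiKM 1 and LiKM 3 correlated best with the LiK mouse of the same number, and LiKM 2 with LiK 3, at 0.0434. These values do not settle whether the numbers pair mice. The main fit took the mice as unpaired because the labels name no link. Under a minimum of 1 CPM in 3 libraries Ereg, Hbegf, Egf and Nrg1 were not tested. Depth limits Areg, Ereg, Hbegf and Egf, which had at most 36 counts in any library, and 3 mice per genotype limit every comparison.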

Other observations

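Nrg4 and Erbb3, a ligand gene of the neuregulin branch and a receptor gene of that branch, both varied more between mice of a genotype than between the genotypes. Nrg4 was lowest in library 3 of each genotype, at 5.74 CPM in LiKM 3 and 9.07 CPM in LiK 3, the libraries in which Erbb3 was highest, at 128 CPM in LiKM 3 and 98.2 CPM in LiK 3. The pairing was noticed in the values and has no test, and NRG4 is known to bind ERBB4, which had at most 11 counts in any library.

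Among transcripts that ERK is known to induce, the immediate early gene Myc had 6.81, 8.39 and 37.2 CPM in LiKM and 4.96, 19.3 and 5.62 CPM in LiK, and Ier3 had 1.55, 1.63 and 6.70 CPM in LiKM and 1.16, 1.16 and 0.657 CPM in LiK. In both genes LiKM 3 was the highest library, and neither was called by edgeR. Both were chosen after their values were seen. In the same list Fos had 87.3, 28.4 and 20.8 CPM in LiKM and 9.92, 4.03 and 16.4 CPM in LiK, without overlap. Its log2 fold change of 2.16 (SE 0.66) was the largest of the list and was not called by edgeR (adjusted p = 0.109). Egr1 had 251, 105 and 126 CPM in LiKM and 109, 13.2 and 159 CPM in LiK, and was not called by edgeR. Fos and Egr1, also immediate early genes, were highest in LiKM 1 among the LiKM libraries.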
